A study of Mus musculus with 11 samples.

Results

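The IL-6, IL-10 and IL-12 axis was followed through 10 genes, chosen by name: the cytokine genes Il6, Osm, Il10 and Il12b, and the receptor chain genes Il6ra, Il6st, Osmr, Il10ra, Il10rb and Il12rb1. All 10 were found among the 50686 genes of the deposited count tables. They were measured by RNA-seq in 11 libraries from C57BL/6 mice bearing GL261 tumours. GL261 is a mouse glioma cell line that grows in the brain of immunocompetent mice. Cx3cr1-Rheb1 Δ/Δ mice (labelled KO) carried floxed Rheb1, a small GTPase that activates mTORC1, and a tamoxifen-inducible Cre knocked into Cx3cr1, a gene active in microglia and in other cells of the monocyte lineage. Rheb1 fl/fl mice (labelled WT) carried the floxed gene without Cre, and both genotypes received tamoxifen. GL261 cells were injected 3 weeks after tamoxifen, at 6 weeks of age, and samples were taken about 3 weeks later. Tumour-associated microglia (TAM-MG), sorted as CD11b+ CD45low cells, gave 3 Δ/Δ and 2 fl/fl libraries. Bulk tumours, scraped from fixed and paraffin-embedded sections, gave 3 Δ/Δ and 3 fl/fl libraries. Each library is called here by the number in its label.

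Interleukin-6 and oncostatin M both signal through gp130, the chain encoded by Il6st. IL-6 first binds the receptor chain encoded by Il6ra, and mouse oncostatin M binds that encoded by Osmr. IL-10, which restrains myeloid cells, uses a ligand-binding chain (Il10ra) and a chain shared with related cytokines such as IL-22 (Il10rb). Il12b encodes p40, the subunit common to IL-12 and IL-23, and Il12rb1 encodes the receptor chain that binds p40. All of these receptors signal through JAK kinases and STAT factors, and microglia are known as both producers and targets of IL-6, IL-10 and IL-12 family cytokines.

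The libraries held 20765767 to 29947977 counts in TAM-MG and 14940787 to 21991348 counts in bulk tumours. The sorted cells had the defining microglial markers at high levels: P2ry12 was at 1327 to 4570 CPM (counts scaled for sequencing depth) over the 5 TAM-MG libraries, and Tmem119 at 1353 to 3471 CPM. The targeted gene, Rheb, averaged 69.6 ± 1.72 CPM in Δ/Δ and 125 ± 55.0 CPM in fl/fl TAM-MG (SD, n = 3 and 2), a log2 fold change of -0.85 (SE 0.34, adjusted p = 0.552). Counts cover the whole gene, of which Cre removes exon 3. In bulk tumours it averaged 165 ± 52.7 CPM in Δ/Δ and 304 ± 60.9 CPM in fl/fl (SD, n = 3 each), a log2 fold change of -0.88 (SE 0.32, adjusted p = 0.426). CPM values here are scaled by TMM within each experiment, and adjusted p values come from the quasi-likelihood test of edgeR, over all tested genes. Calls needed a difference of 1.5-fold or more and an adjusted p below 0.05. By this rule 0 of 14872 genes were called between genotypes in TAM-MG and 0 of 17028 in bulk tumours, although 813 genes were higher and 342 lower in TAM-MG, and 650 higher and 883 lower in bulk tumours, at an unadjusted p below 0.05. With edgeR's likelihood ratio test 245 genes were called in TAM-MG and 383 in bulk tumours, and with DESeq2 477 and 474.

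The promoter windows of Il12b and Il6 are shown because these were the cytokine genes whose genotype groups did not overlap in CPM in TAM-MG. Promoters were present for 5 of the 10 genes in the RefSeq table of GRCm38.p6 (Il6, Il12b, Il6ra, Il6st and Osmr). The 150 bases before each start are given in lower case, with matches to the first letters of an NF-κB site, GGGANTT, in capitals. NF-κB is a factor downstream of Toll-like receptors, and these letters were chosen with both sequences in view.
Il12b: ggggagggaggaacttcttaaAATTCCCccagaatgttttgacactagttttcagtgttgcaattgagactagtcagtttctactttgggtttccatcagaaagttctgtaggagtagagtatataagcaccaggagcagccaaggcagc
Il6: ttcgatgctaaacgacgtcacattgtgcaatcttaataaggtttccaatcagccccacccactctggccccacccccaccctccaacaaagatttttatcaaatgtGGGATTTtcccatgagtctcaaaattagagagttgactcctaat
The Il12b window is chr11:44399913-44400062 and the Il6 window chr5:30012964-30013113, both on the plus strand. On both strands of the 250 bases before each start, GGGANTT was found in Il6, from 44 to 38 bases before its start, and in 14.4% of 32851 promoters. In Il12b it lay on the minus strand from 129 to 123 bases before the start. A further Il12b match lay on the plus strand from 206 to 200 bases before the start, outside the printed stretch, and Osmr held 1 match. The STAT letters TTCNNNGAA, which 7.02% of promoters hold, were in none of the 5 windows. The AP-1 letters TGANTCA, held by 6.75% of promoters, were in Il6 alone, from 249 to 243 bases before its start. These matches describe letters, and binding was not measured.

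In TAM-MG, Il12b was the cytokine gene that was lower in Δ/Δ cells, while Il6 and the receptor chain gene Il10ra were higher, and none of these differences was called. Il12b (ENSMUSG00000004296, chromosome 11, 44400063 to 44414033) was at 3.39, 11.2 and 8.17 CPM in Δ/Δ libraries 54, 63 and 65, against 54.4 and 31.1 CPM in fl/fl libraries 74 and 78. Every Δ/Δ library lay below both fl/fl libraries. The means were 7.60 ± 3.96 and 42.7 ± 16.5 CPM (SD, n = 3 Δ/Δ and 2 fl/fl), a log2 fold change of -2.49 (SE 0.70, unadjusted p = 0.0118, adjusted p = 0.502 with edgeR). DESeq2 called the difference (-2.50, adjusted p = 0.0379), and over the other alternatives the adjusted p ranged from 0.0823 with the likelihood ratio test of edgeR to 0.66 with a library left out. The value stayed between -2.88 and -2.02 when each library was left out. The deposited TPM values, estimated with Salmon and scaled for library size and transcript length, had the same order: 2.45, 7.30 and 5.88 TPM in Δ/Δ libraries, against 36.96 and 17.03 TPM in fl/fl libraries.

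**Figure D1:**
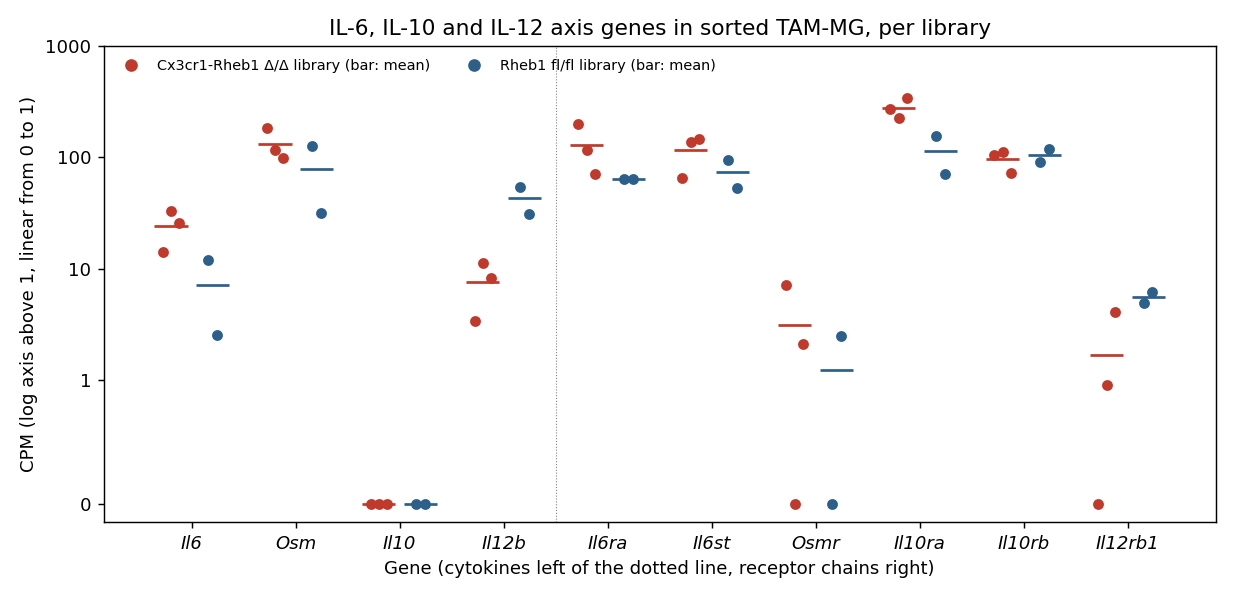
Level of the 10 genes in sorted TAM-MG, in TMM-scaled CPM on an axis that is logarithmic above 1. Points are libraries (3 Cx3cr1-Rheb1 Δ/Δ on the left of each gene, 2 Rheb1 fl/fl on the right) and bars are means; Il12b lies at 3.39 to 11.2 CPM in Δ/Δ and at 31.1 and 54.4 CPM in fl/fl, and Il10 lies at 0 in all 5.

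The partners of p40 were scarcely counted in the same cells. Il12a, the p35 subunit that makes IL-12 with p40, had 0 counts in all 5 TAM-MG libraries. Il23a, the p19 subunit of IL-23, had 19 counts in Δ/Δ library 54 and 0 in the other 4. Both were named after their values were seen, as the subunits that pair with p40.

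Il6 (ENSMUSG00000025746, chromosome 5, 30013114 to 30019981) was at 14.0, 32.7 and 25.5 CPM in Δ/Δ TAM-MG, against 11.8 and 2.53 CPM in fl/fl TAM-MG. The groups did not overlap in CPM, but Δ/Δ library 54 and fl/fl library 74 lay close to each other. In TPM the groups overlapped, with Δ/Δ library 54 at 17.4 TPM and fl/fl library 74 at 18.8 TPM. The log2 fold change was 1.74 (SE 0.91, adjusted p = 0.633), and it was 1.03 without fl/fl library 78 and 3.26 without fl/fl library 74. Il6 and Il12b therefore had opposite signs in the same libraries.

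Osm (ENSMUSG00000058755, chromosome 11, 4236420 to 4241026), a cytokine of myeloid cells, was at 182, 117 and 97.7 CPM in Δ/Δ TAM-MG, against 126 and 31.6 CPM in fl/fl TAM-MG. The fl/fl library 74 lay within the Δ/Δ range, and the log2 fold change of 0.74 (SE 0.63, adjusted p = 0.851) was 0.08 without fl/fl library 78 and 2.08 without fl/fl library 74. Il10 (ENSMUSG00000016529, chromosome 1, 131019845 to 131024974) had no count in any TAM-MG library. A count of 0 allows up to 0.0411 CPM over the Δ/Δ group and 0.0583 CPM over the fl/fl group, taking 3 counts over each group as the limit and covering counting error only.

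Among the receptor chains in TAM-MG, Il10ra (ENSMUSG00000032089, chromosome 9, 45253837 to 45269149) was at 269, 224 and 340 CPM in Δ/Δ libraries, against 155 and 70.2 CPM in fl/fl libraries. All 3 Δ/Δ libraries lay above both fl/fl libraries, with means of 278 ± 58.2 and 113 ± 60.2 CPM (SD, n = 3 Δ/Δ and 2 fl/fl). The log2 fold change was 1.30 (SE 0.42, unadjusted p = 0.0223, adjusted p = 0.519), and the likelihood ratio test and DESeq2 gave adjusted p values of 0.166 and 0.0806. It was 0.85 without fl/fl library 78 and 2.00 without fl/fl library 74. A pseudogene on the other strand overlaps Il10ra, and without strand the reads of both cannot be told apart.

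Il6ra and Il6st, the chain genes of the IL-6 receptor, had smaller fold changes than Il10ra in TAM-MG. Il6ra (ENSMUSG00000027947, chromosome 3, 89864059 to 89913196) was at 200, 115 and 70.7 CPM in Δ/Δ libraries, against 64.2 and 64.4 CPM in fl/fl libraries, with a log2 fold change of 1.001 (SE 0.48, adjusted p = 0.574). The Δ/Δ values spread almost to the fl/fl level, which they did not overlap in CPM, and the fold change was 0.53 without Δ/Δ library 54. In TPM the groups overlapped, with Δ/Δ library 65 at 24.2 TPM and fl/fl library 74 at 25.3 TPM. An antisense gene overlaps Il6ra, and whether strand was used in counting is not given in the sources used here. Il6st (ENSMUSG00000021756, chromosome 13, 112464070 to 112510086) was at 65.3, 136 and 147 CPM in Δ/Δ libraries, against 93.6 and 52.8 CPM in fl/fl libraries (log2 fold change 0.66, SE 0.47, adjusted p = 0.79), and the groups overlapped.

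Il10rb (ENSMUSG00000022969, chromosome 16, 91406164 to 91425834) was nearly level in TAM-MG. Gm21970, annotated on the same strand over Il10rb, had 0 counts in all 11 libraries, and how reads shared by both were assigned is not given in the sources used here. Il10rb was at 106, 112 and 72.1 CPM in Δ/Δ libraries, against 89.9 and 118 CPM in fl/fl libraries, and its log2 fold change of -0.11 (SE 0.32, adjusted p = 0.985) turned to 0.11 without fl/fl library 78. Il12rb1 (ENSMUSG00000000791, chromosome 8, 70808449 to 70821424) was low, at 0, 0.96 and 4.04 CPM in Δ/Δ libraries, against 4.86 and 6.15 CPM in fl/fl libraries (log2 fold change -1.72, SE 2.08, adjusted p = 0.932). Osmr (ENSMUSG00000022146, chromosome 15, 6813577 to 6874969) was at 7.18, 0 and 2.08 CPM in Δ/Δ libraries, against 0 and 2.48 CPM in fl/fl libraries, and its value of 1.32 (SE 2.95, adjusted p = 0.98) turned to -0.23 without Δ/Δ library 54.

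Of the 9 genes tested in TAM-MG, 0 were called in either direction, as for all tested genes (0%). An unadjusted p under 0.05 was reached by 1 gene that was higher (Il10ra, against 5.47% of all genes) and 1 that was lower (Il12b, against 2.3%). In CPM, groups did not overlap for 3 genes that were higher in Δ/Δ (Il6, Il6ra and Il10ra, against 14.6% of all genes) and 2 that were lower (Il12b and Il12rb1, against 11.5%). In TPM the groups of Il6, Il6ra and Il12rb1 overlapped. With 3 and 2 libraries, the median log2 fold change was 0.74 over the 9 genes and 0.08 over all tested genes. Scaling the libraries to the same mean log2 CPM shifted the median of all genes by -0.42 in TAM-MG, and under it the values were -2.94 for Il12b, 1.26 for Il6 and 0.85 for Il10ra.

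Markers of microglia and of other cells were also compared between genotypes in TAM-MG. The summed level of 10 B-cell and dendritic-cell markers was 40.9 to 105 CPM in Δ/Δ libraries, against 183 to 233 CPM in fl/fl libraries, in the direction of Il12b. Itgax, which encodes CD11c, was the most abundant part of the difference, at 18.2, 37.4 and 21.7 CPM in Δ/Δ libraries, against 132 and 79.0 CPM in fl/fl libraries (log2 fold change -2.03, SE 0.45, unadjusted p = 0.00411, adjusted p = 0.502). It was named after its values were seen. Of the same list, the B-cell genes Cd79a and Ms4a1 and the dendritic-cell gene Cd209a had no count in the fl/fl group. All 10 genes of the homeostatic microglia list were higher in Δ/Δ than in fl/fl TAM-MG (2 at an unadjusted p under 0.05, 0 called), in the direction of Il10ra, with summed levels of 23477 to 35089 CPM in Δ/Δ libraries, against 19996 to 25241 CPM in fl/fl libraries. The summed level of 8 granulocyte markers was 310 to 336 CPM in Δ/Δ libraries, against 179 to 268 CPM in fl/fl libraries, with Ly6g at 0 in all 5, but of its 6 tested genes 3 were higher and 3 lower in Δ/Δ (1 each at an unadjusted p under 0.05), with a median log2 fold change of -0.0071. The part of these markers in the differences of Il12b and Il10ra was not tested.

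In bulk tumours, 2 receptor chain genes, Il12rb1 and Il10rb, were lower in every Δ/Δ library than in every fl/fl library, and the cytokine genes were near the limit of counting. Il12rb1 was at 0.92, 4.28 and 5.44 CPM in Δ/Δ libraries 26, 36 and 37, against 69.0, 17.5 and 13.2 CPM in fl/fl libraries 35, 38 and 110. Library 35 stood far above the other fl/fl libraries, which still exceeded every Δ/Δ library. The means were 3.55 ± 2.35 and 33.2 ± 31.1 CPM (SD, n = 3 each), a log2 fold change of -3.22 (SE 0.95, unadjusted p = 0.00603, adjusted p = 0.268 with edgeR). It was called by the likelihood ratio test (adjusted p = 0.0358) and by DESeq2 (adjusted p = 0.00808), and without library 35 it was -2.14. The deposited TPM values were 0.29, 0.83 and 0.98 in Δ/Δ libraries, against 20.5, 4.12 and 4.62 in fl/fl libraries.

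Il10rb was at 9.72, 8.50 and 27.6 CPM in Δ/Δ tumours, against 54.7, 51.9 and 33.0 CPM in fl/fl tumours. The gap between the groups was narrow, between Δ/Δ library 37 and fl/fl library 110. The means were 15.3 ± 10.7 and 46.5 ± 11.8 CPM (SD, n = 3 each), a log2 fold change of -1.60 (SE 0.59, unadjusted p = 0.0205, adjusted p = 0.43), which ranged from -2.35 to -1.31 with each library left out.

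**Figure D2:**
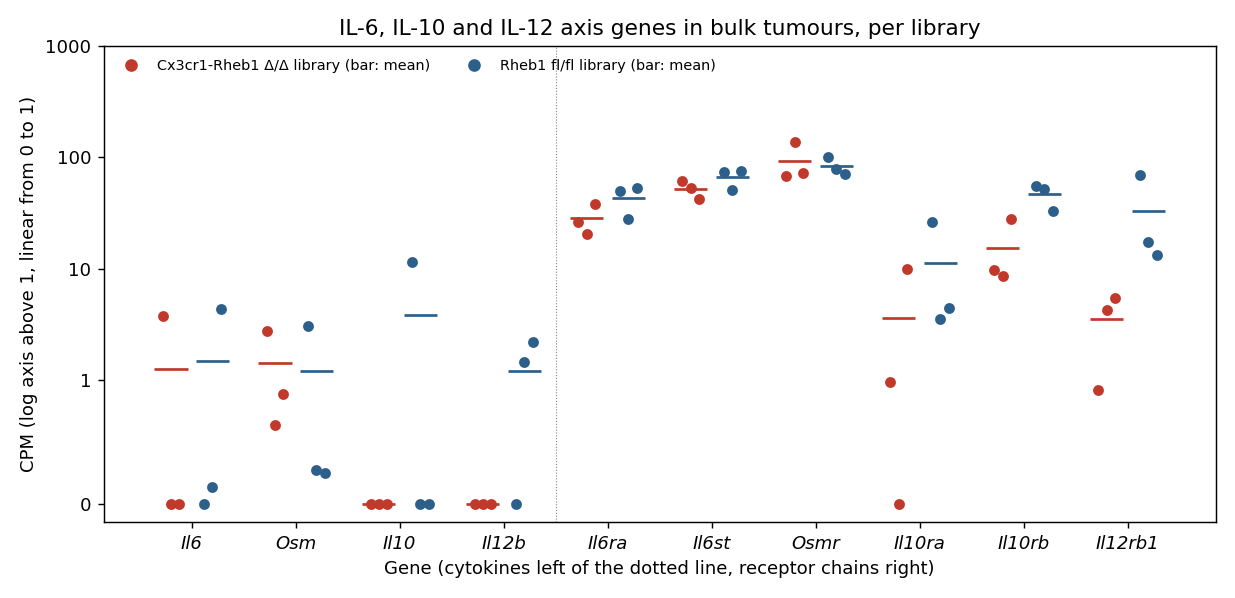
Level of the 10 genes in bulk tumours, in TMM-scaled CPM on an axis that is logarithmic above 1. Points are libraries (3 Cx3cr1-Rheb1 Δ/Δ on the left of each gene, 3 Rheb1 fl/fl on the right) and bars are means; Il12rb1 and Il10rb lie lower in all 3 Δ/Δ libraries, Il12b is at 0 in Δ/Δ, and Il10 is above 0 in a single fl/fl library.

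Il10ra was at 0.99, 0 and 9.89 CPM in Δ/Δ tumours, against 25.96, 3.504 and 4.43 CPM in fl/fl tumours. The groups overlapped, and the log2 fold change of -1.63 (SE 1.66, adjusted p = 0.835) was -0.15 without fl/fl library 35 and -4.51 without Δ/Δ library 37. Il6ra was at 26.1, 20.5 and 38.01 CPM in Δ/Δ tumours, against 49.9, 28.0 and 52.5 CPM in fl/fl tumours (log2 fold change -0.62, SE 0.48, adjusted p = 0.754). The groups overlapped, and on the TPM scale the difference was 0.033 with limma on log2(TPM + 1).

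Il6st was at 60.9, 52.5 and 42.0 CPM in Δ/Δ tumours, against 73.8, 51.1 and 75.6 CPM in fl/fl tumours, with a log2 fold change of -0.37 (SE 0.36, adjusted p = 0.826) and overlapping groups. Osmr was at 67.9, 138 and 72.1 CPM in Δ/Δ tumours, against 99.6, 78.1 and 71.2 CPM in fl/fl tumours, with a log2 fold change of 0.16 (SE 0.37, adjusted p = 0.942). For Osmr the 2 kinds of file ordered the libraries differently: Δ/Δ library 36 had the most counts and the lowest TPM, 2.64, while Δ/Δ library 26 had the fewest counts and the highest TPM, 17.1. The difference was -0.31 with limma on log2(TPM + 1), and the cause was not tested.

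The cytokine genes of the bulk tumours are given as raw counts. Il12b had 0 counts in the 3 Δ/Δ libraries, against 0, 32 and 35 counts in fl/fl libraries 35, 38 and 110. Pooled over libraries and set against 3 counts over the Δ/Δ group, the Il12b counts were at least 19.4-fold lower in Δ/Δ than in fl/fl tumours. This bound was 11.8 to 28.6 with each library left out, and it covers counting error only, not the spread between tumours. The groups overlapped at 0, and without the filter on low counts the quasi-likelihood test gave an adjusted p of 0.451. Library 35, the fl/fl tumour with the highest Il12rb1, thus had no Il12b count.

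Il10 had 0 counts in the 3 Δ/Δ libraries, against 207, 0 and 0 counts in the fl/fl libraries. Its signal came from library 35 alone, and without it there is nothing to compare. Il6 had 53, 0 and 0 counts in Δ/Δ libraries, against 0, 3 and 69 counts in fl/fl libraries, so that 1 library of each genotype held nearly all of them. Osm passed the filter, with 39, 10 and 17 counts in Δ/Δ libraries, against 55, 6 and 4 counts in fl/fl libraries. Its log2 fold change of 0.26 (SE 1.46, adjusted p = 0.978) was -0.63 without Δ/Δ library 26 and 2.40 without fl/fl library 35.

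Il6, Il10 and Il12b did not pass the filter on low counts, which left 7 genes tested in bulk tumours and 0 of them called (0% of all genes in either direction). An unadjusted p under 0.05 was reached by 2 of the 7 that were lower (Il10rb and Il12rb1, against 5.19% of all genes) and by 0 that were higher (3.82%). The same 2 were those whose groups did not overlap with Δ/Δ lower, against 9.23% of all genes, and 0 did so with Δ/Δ higher (7.82%). The median log2 fold change was -0.62 over the 7 genes and 0.00 over all tested genes. Scaling to the same mean log2 CPM shifted the median of all genes by 0.12, and Il12rb1 and Il10rb were then at -3.11 and -1.47.

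Bulk tissue cannot tell fewer cells of a type from less RNA per cell, and the sums of several immune marker lists were lower in Δ/Δ, like these receptor chains. The summed level of 15 microglia and macrophage markers was 875 to 1875 CPM in Δ/Δ tumours, against 2851 to 4991 CPM in fl/fl tumours, with 15 of 15 lower (11 at an unadjusted p under 0.05, 0 called). The summed level of 10 monocyte-derived macrophage markers was 334 to 457 CPM in Δ/Δ tumours, against 893 to 1699 CPM in fl/fl tumours, with 8 lower and 2 higher. Groups overlapped for the sum of 10 homeostatic microglia markers, at 933 to 1488 CPM in Δ/Δ against 1145 to 1540.5 CPM in fl/fl (9 lower and 1 higher). They also overlapped for the sum of 10 B-cell and dendritic-cell markers, at 24.8 to 38.9 against 37.3 to 61.4 CPM. The sums were not taken in TPM. In TPM, every Δ/Δ tumour lay below every fl/fl tumour for Itgam, Tmem119 and Cx3cr1. Csf1r overlapped in TPM, at 5.43 to 32.5 in Δ/Δ against 14.9 to 31.9 in fl/fl. P2ry12 turned in TPM, with means of 3.23 in Δ/Δ and 0.95 in fl/fl, where its mean CPM was 13.7 and 44.0. The 12 markers of T and NK cells, in which Il12rb1 is known to be expressed, summed to 4.58 to 23.5 CPM in Δ/Δ tumours, against 33.6 to 89.1 CPM in fl/fl tumours, and Cd2 and Ncr1 were at 0 in all Δ/Δ tumours. Of the 12, 8 were tested and 8 were lower (3 at an unadjusted p under 0.05, 0 called). Cd3e had 0, 17 and 1 counts in Δ/Δ, against 119, 49 and 248 in fl/fl tumours. The authors reported more CD8 and CD4 T cells in Δ/Δ tumours, by cell fractions estimated from bulk RNA, flow cytometry and tissue staining. They also reported more bone marrow-derived macrophages there by flow cytometry. Both go the other way from the sums given here. The part of these cells in the differences of Il12rb1 and Il10rb was not tested.

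**Figure D3:**
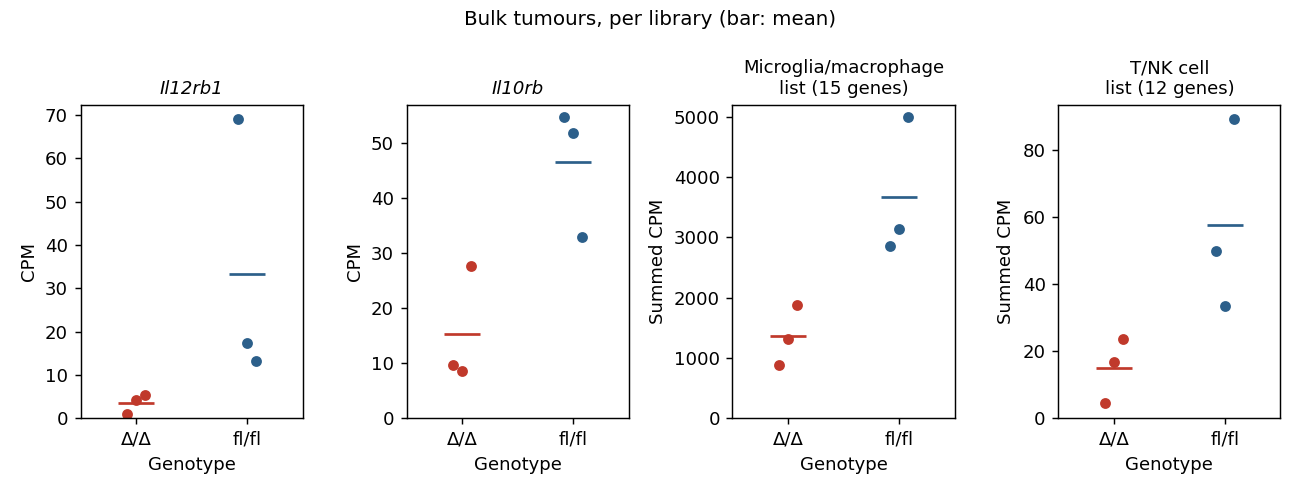
Il12rb1 and Il10rb in bulk tumours (CPM, linear axes from 0) beside the summed CPM of 15 microglia and macrophage markers and of 12 T and NK cell markers. Points are the 3 Cx3cr1-Rheb1 Δ/Δ and the 3 Rheb1 fl/fl libraries and bars are means; in all 4 plots every Δ/Δ library lies below every fl/fl library.

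The genotype differences were next compared between TAM-MG and bulk tumours, by an interaction term over all 11 libraries. The 2 experiments differ in sort, RNA source and extraction, which cannot be told apart here. Of 9 genes tested, 0 were called (0.197% of all 21342 genes were called higher and 0.0281% lower). An unadjusted p under 0.05 was reached by 1 gene with a positive difference (Il6ra, against 9.3% of all genes) and by 0 with a negative one (2.93%). The difference of Il6ra was 1.66 (SE 0.67, unadjusted p = 0.0302, adjusted p = 0.365): its log2 fold change was 1.001 in TAM-MG and -0.62 in bulk tumours. Il10rb, lower in Δ/Δ bulk tumours and nearly level in TAM-MG, had a difference of 1.53 (SE 0.72, unadjusted p = 0.0569, adjusted p = 0.421), and Il10ra one of 2.97 (SE 1.81, adjusted p = 0.565). With a library left out, the difference ranged from 1.24 without Δ/Δ tumour 36 to 2.31 without Δ/Δ tumour 37 for Il10rb, and from 1.503 without fl/fl tumour 35 to 5.90 without Δ/Δ tumour 37 for Il10ra, with no call.

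All 9 differences were above 0, that is, more positive in TAM-MG, as were 57.3% of those of all genes. All 15 microglia and macrophage markers were above 0 too, and the median was 1.54 over the 9 genes and 1.44 over these markers. For Il6, Osm, Osmr and Il12rb1 the sign depended on a single library, and the value for Il12b rests on a Δ/Δ group at 0 in bulk tumours and is not given as a size. Summed over libraries, Il12b was thus lower in Δ/Δ in both experiments. It was at 569 against 2345 counts in TAM-MG (3 Δ/Δ and 2 fl/fl libraries) and at 0 against 67 counts in bulk tumours. The fl/fl tumour 35 also had 0 counts, and neither difference was called by the quasi-likelihood test.

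**Figure D4:**
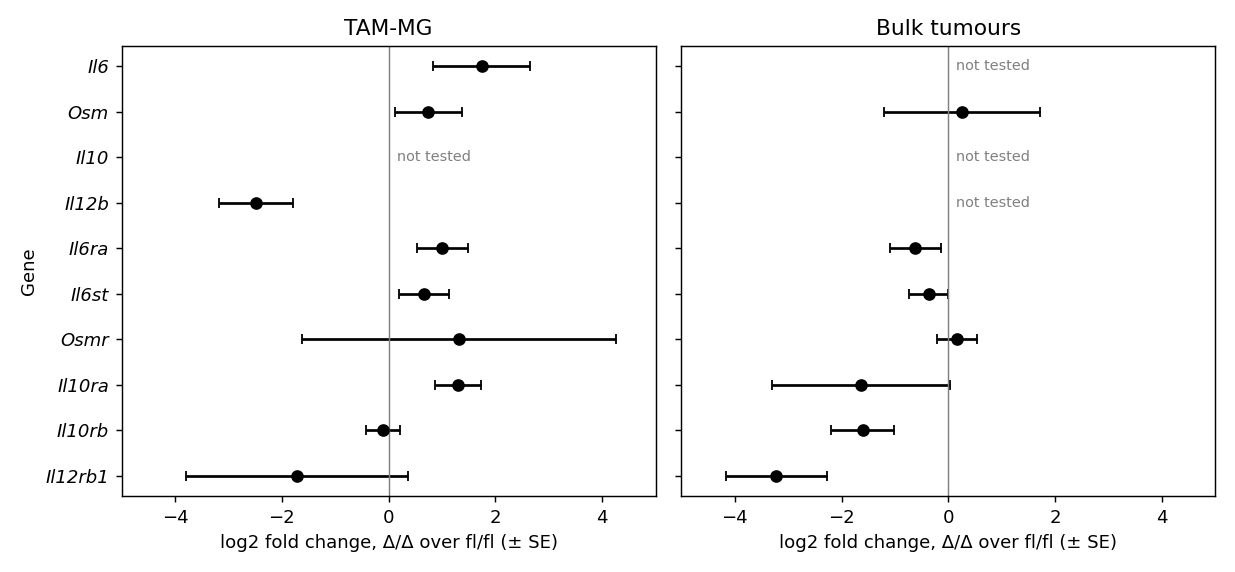
Log2 fold change of Cx3cr1-Rheb1 Δ/Δ over Rheb1 fl/fl with its standard error (edgeR) in TAM-MG, left, and in bulk tumours, right. Il12b (-2.49) in TAM-MG and Il12rb1 (-3.22) in bulk tumours lie farthest from 0 in their plots, and genes that did not pass the filter on low counts are marked as not tested.

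The last comparison set the level of these genes in TAM-MG against that in bulk tumours, with all libraries scaled together. Sort, RNA source, extraction and mice all differ between the 2 experiments, and their part in these differences cannot be told apart from that of the cells. Of 9 genes tested, 6 were called higher in TAM-MG (Osm, Il12b, Il6ra, Il6st, Il10ra and Il10rb, against 20.5% of all genes) and 1 was called lower (Osmr, against 32.4%). The median log2 difference was 2.49 over the 9 genes, -0.89 over all tested genes and 4.95 over the 15 microglia and macrophage markers.

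Osm had the largest fitted difference among the genes with counts in every group, 6.85 on the log2 scale (SE 0.81, adjusted p = 6.45e-05). It was at 39.2 to 227 CPM over the 5 TAM-MG libraries, against 0.21 to 2.51 CPM over the 6 bulk tumours, on the common scale. Il10ra followed with 5.35 (SE 0.99, adjusted p = 0.00128), Il10rb with 2.49 (SE 0.37, adjusted p = 0.000291), Il6ra with 1.95 (SE 0.33, adjusted p = 0.000759) and Il6st with 1.22 (SE 0.30, adjusted p = 0.00606). In these 5 genes and in Il12b every TAM-MG library exceeded every bulk tumour, as in 14.6% of all genes. Il12b was at least 192-fold higher in TAM-MG than in bulk tumours among Δ/Δ libraries, where the tumours had no count, and 55.8-fold higher among fl/fl libraries. The bound takes 3 counts over the Δ/Δ tumours as the limit and covers counting error only.

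Osmr ran the other way. It was at 0 to 8.97 CPM over the TAM-MG libraries, against 57.1 to 115 CPM over the bulk tumours, a log2 difference of -4.92 (SE 1.31, adjusted p = 0.00986), with no overlap (20.2% of all genes). With fl/fl libraries only, the call was lost (-5.58, adjusted p = 0.0502). Without fl/fl TAM-MG library 78 the fl/fl TAM-MG group is at 0, and the fitted value of -9.01 is then no measure of size. The ligand gene Osm and the gene of its specific receptor chain, Osmr, thus differed in opposite directions between the sorted cells and the tumours. Il12rb1 was at 0 to 7.63 CPM in TAM-MG, against 0.77 to 56.6 CPM in bulk tumours, and was not called (-1.26, SE 1.08, adjusted p = 0.344). Il6 was at 3.14 to 41.6 CPM in TAM-MG, against 0 to 3.55 CPM in bulk tumours, and missed the threshold (3.84, SE 1.58, adjusted p = 0.0582). Without Δ/Δ tumour 26 or fl/fl tumour 110, the libraries that held nearly all bulk Il6 counts, Il6 was called at 7.44 and 5.84.

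Per length, in TPM, the order of median levels in TAM-MG was Il10rb (111 TPM, range 59.8 to 138), Osm (72.5, range 15.2 to 104), Il10ra (69.9, range 16.4 to 91.0), Il6ra (25.3, range 20.4 to 77.7), Il6 (18.8, range 2.81 to 43.8), Il6st (18.0, range 5.61 to 22.9), Il12b (7.30, range 2.45 to 36.96), Il12rb1 (0.9999, range 0.0099 to 1.44), Osmr (0.59, range 0.0028 to 1.32) and Il10 (0). Neighbouring genes in this order overlapped in range, except that Il12b lay above Il12rb1 and Il10 was at 0. In bulk tumours the deposited TPM values covered 7 of the 10 genes, and there Il10rb (11.8 TPM, range 3.14 to 25.8) and Osmr (11.1, range 2.64 to 17.1) had the highest medians.

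**Figure D5:**
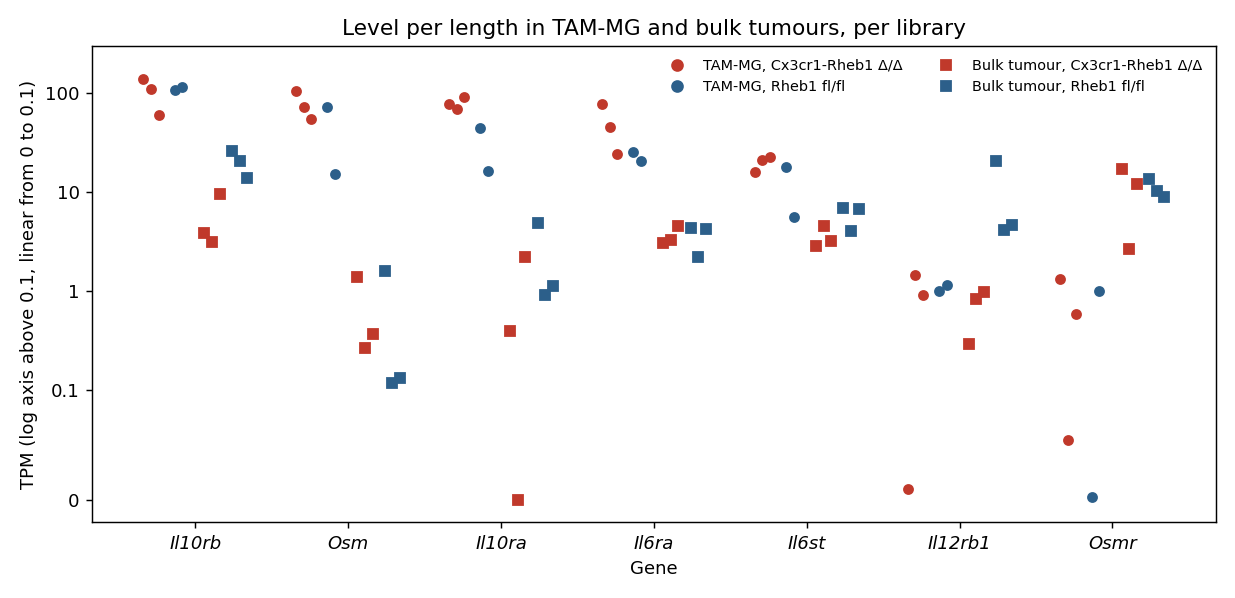
Deposited TPM values (logarithmic axis above 0.1) of the 7 genes present in both TPM tables. Circles on the left of each gene are the 5 TAM-MG libraries and squares on the right the 6 bulk tumours, coloured by genotype; Osm lies at 15.2 to 104 TPM in TAM-MG and Osmr at 0.0028 to 1.32 TPM, against 2.64 to 17.1 TPM for Osmr in bulk tumours.

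Other genes of the same pathways were counted from lists of 13 cytokines, 12 receptor chains and 13 transducers and feedback regulators. Between genotypes none of their tested genes was called in either experiment. In TAM-MG, 11 of 13 transducers were higher in Δ/Δ than in fl/fl (1 at an unadjusted p under 0.05), with a median log2 fold change of 0.64. In bulk tumours, 12 of 13 were lower in Δ/Δ (3 at an unadjusted p under 0.05), with a median of -0.51. Jak1, the kinase that gp130 and the IL-10 receptor share, was at 0.07 (SE 0.25, adjusted p = 0.988) in TAM-MG and at 0.12 (SE 0.30, adjusted p = 0.943) in bulk tumours.

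Between TAM-MG and bulk tumours, 2 of 8 tested cytokine genes of the list were called higher in TAM-MG (against 20.5% of all genes) and 1 was called lower (Ctf1, which encodes cardiotrophin-1, adjusted p = 0.0295, against 32.4%). Of the 8, 3 were higher and 5 lower, with a median of -1.90. The 2 called higher were Ebi3 and Il27, which encode the subunits of IL-27 and were named after their values were seen. Ebi3 had 4269 counts over the Δ/Δ and 1922 over the fl/fl TAM-MG libraries, against 0 and 42 counts in Δ/Δ and fl/fl tumours, and its deposited TPM values were 39.7 to 144 in TAM-MG, against 0 to 18.4 in bulk tumours. Il27 had 481 and 826 counts in Δ/Δ and fl/fl TAM-MG, against 0 and 8 counts in Δ/Δ and fl/fl tumours. Of the fl/fl TAM-MG counts, 818 were in library 74 and 8 in library 78. Il27 passed the filter on low counts through its TAM-MG libraries alone, so a call could only be higher in TAM-MG. Of 7 tested receptor chain genes of the list, 3 were higher and 4 lower in TAM-MG, with a median of -1.87. Of these, 2 were called higher (against 20.5% of all genes) and 2 lower (against 32.4%). Cntfr was among those called lower (adjusted p = 0.000245). The 2 called higher were Lifr, which pairs with gp130 to bind LIF (2.75, SE 0.37, adjusted p = 0.000173), and Il11ra1, the receptor chain for IL-11 (1.81, SE 0.52, adjusted p = 0.0141). Lif and Il11 themselves were not called (-2.16 and -2.18, adjusted p = 0.306 and 0.084).

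The genes most like each of the 7 genes tested in both experiments were found by the mean absolute difference of log2 CPM, centred within each experiment, over the 11 libraries. Among 12666 genes, those close to Il6st included Yrdc and Ube3a (0.136 and 0.157), where Il6st itself deviated by 0.377 from its means. Il10rb was followed by Gbp2 (0.222), Gsdmd (0.236) and Fam20b (0.263). Il6ra was followed by Zfyve19 (0.24), Plod3 (0.253) and Uba3 (0.254), while no gene came closer than 0.408 to Osm, 0.429 to Osmr, 0.463 to Il10ra or 0.633 to Il12rb1.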

How the data were processed

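The authors deposited raw gene counts from STAR and TPM (scaled for library size and transcript length) from Salmon for each experiment, both on Ensembl GRCm38. Tool versions are not given in the sources used here. The deposited TPM of bulk tumours cover part of the genes, and an unnamed total in the TAM-MG tables was left out. Of 50686 identifiers, 50376 (99.4%) had a name in the annotation used. The genes and lists were chosen with earlier results of these data known. All 10 genes are named. Of each pathway list the first 4 tested genes could be named, others being marked as chosen later. Some genes are not reported here.

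Counts were tested in R 4.3.3 with edgeR 4.0.16 (filterByExpr with a minimum count of 10 and total of 15, TMM, quasi-likelihood test, Benjamini-Hochberg adjustment), each experiment alone, and all 11 libraries in a model of 4 groups for the interaction and level. The common biological coefficient of variation (edgeR) of TAM-MG was 0.992 and that of bulk tumours 0.801. The test was run on simulated counts with known changes. That check set limits on false calls and on the error of fold changes, and none on the share of changes found. Alternatives were edgeR's likelihood ratio test, DESeq2 1.42.0, limma 3.58.1 on log2(TPM + 1) and log2(TPM + 0.1), other filters and scalings, and leaving out each library. The labels do not say whether a library held 1 mouse or pooled mice, so p values measure the spread between libraries. Coordinates are those of GRCm38. Promoters were read from RefSeq (GRCm38.p6).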

Additional observations from a re-analysis of the deposited data

How the results depend on the processing

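No paired analysis was possible because the replicate numbers in the labels are not shared between the groups compared. Of the 10 genes, the likelihood ratio test of edgeR and DESeq2 each called 1 in bulk tumours (Il12rb1), and DESeq2 called 1 in TAM-MG (Il12b), against 0 with the quasi-likelihood test. Between TAM-MG and bulk tumours, 7 were called with all libraries, 4 with fl/fl libraries only, 3 when each library had to hold 10 counts or more (which 3 genes met) and 6 to 8 with a library left out. With fl/fl libraries only, Il6ra, Il6st and Osmr had adjusted p values of 0.11, 0.296 and 0.0502, and with library size as the only scaling Il6st was at 0.66 (adjusted p = 0.0851).

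Over all genes of the bulk tumours, 0 calls became 383 with the likelihood ratio test, 474 with DESeq2, 102 with no filter, 62 where each library had to hold 10 counts or more, 1 with limma on either TPM scale, and 0 to 8 with a library left out. In TAM-MG, 0 calls became 245 with the likelihood ratio test and 477 with DESeq2. The interaction gave 48 calls, against 835, 1206, 76 and 3 with the likelihood ratio test, DESeq2, no filter and at least 10 counts, and 1 to 361 with a library left out. The level comparison gave 11283 calls, against 4571 with at least 10 counts, 7263 with limma on log2(TPM + 1), 6789 with Δ/Δ libraries only and 6403 with fl/fl libraries only. Its split of 4370 higher and 6913 lower was 3285 and 8562 with library size only.

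Signs turned, with no call on either side, in bulk tumours for Il6ra (0.033 and 0.051) and Osmr (-0.31 and -0.38) with limma on log2(TPM + 1) and log2(TPM + 0.1). With a library left out, ranges crossed 0 in bulk tumours for Osm (-0.63 to 2.40) and Osmr (-0.24 to 0.34), in TAM-MG for Osmr (-0.23 to 9.34) and Il10rb (-0.28 to 0.11), and in the interaction for Il6 (-2.27 to 9.64), Osm (-1.65 to 1.84), Osmr (-0.34 to 9.12) and Il12rb1 (-0.16 to 2.17). Where 1 fl/fl TAM-MG library was left out, the other was assumed to vary like the Δ/Δ group. The cause was not tested. Low counts limit Il6, Il10, Il12b and Osm in bulk tumours, and Osmr and Il12rb1 in TAM-MG.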
